A study of Arabidopsis thaliana with 36 samples.

Results

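Roots of the PHT5;1-GFP line 4 (labelled 35S:PHT5;1-GFP#04) after 3 days at 10 µM Pi (-P3) were compared with roots of the same line at 250 µM Pi (+P0), over all genes with an AGI locus code. The comparison rests on 4 of the 36 libraries of the series, with 2 in each group, and took in 28496 named genes, of which 20530 had the mean of at least 0.25 RPKM over the 18 root libraries needed for a test. RPKM scales the reads of a gene by the length of its exons and by the depth of the library, so levels may be set side by side between genes. The seedlings were of the Col-0 background, and line 4 carries the PHT5;1 open reading frame joined to GFP behind the cauliflower mosaic virus 35S promoter, which drives it in most tissues. Line 12 is a second line with the same transgene, and WT carries none. About 20 seedlings were pooled for each library. The +P0 seedlings were 10 days old, whereas the starved ones had been moved to low-Pi medium at 10 days and were 11 (-P1, after 1 day) or 13 days old (-P3), so that age, the move and Pi supply cannot be told apart in the starvation response. The 2 libraries of a group are called biological replicates without a statement that they came from separate cultures. SEs and p-values rest on the spread between replicates, pooled for each gene over all 9 root groups and drawn toward a trend over genes. They do not measure the spread of the line 4 libraries alone, and the spread may be technical.

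Plants that run short of inorganic phosphate (Pi) release a programme controlled mainly by the MYB factor PHR1, which binds the P1BS element in promoters and is held back by SPX proteins when inositol pyrophosphates signal sufficient Pi. The programme raises Pi uptake, scavenges Pi from organic esters, exchanges membrane phospholipids for galactolipids and sulfolipids, and lengthens root hairs. PHT5;1 moves Pi from the cytosol into the vacuole, and its overexpression stores Pi where the cytosol cannot use it.

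The promoters of the genes with the largest rises are shown because P1BS is the binding site of PHR1. The element, GNATATNC, reads the same on both strands. It was searched in 250 bases before to 50 bases after the gene start of the RefSeq annotation of TAIR10.1, the deposited values having been mapped to TAIR10 and matched here by locus code. It occurred in 6.13% of 37897 windows, in 11.1% of the 2111 windows of genes called higher in -P3 roots of line 4, and in 4.14% of the 555 windows of genes called lower. Among 87 genes that rose at least 8-fold, 25 windows (28.7%) held it. Among the 12 largest rises 5 did, namely those of SPX3, PS2 and, all of unknown function, AT3G25240, AT1G23110 and AT1G08165. A match describes the letters of this window and says nothing about binding.

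The 250 bases before the gene start of these 5 genes run 5′ to 3′ toward the gene, with P1BS in capitals. They lie at chr2:18606160-18606409, plus strand for SPX3, chr3:9192243-9192492, plus strand for AT3G25240, at chr1:27466349-27466598, minus strand for PS2, at chr1:8198332-8198581, minus strand for AT1G23110 and at chr1:2562317-2562566, minus strand for AT1G08165.
SPX3: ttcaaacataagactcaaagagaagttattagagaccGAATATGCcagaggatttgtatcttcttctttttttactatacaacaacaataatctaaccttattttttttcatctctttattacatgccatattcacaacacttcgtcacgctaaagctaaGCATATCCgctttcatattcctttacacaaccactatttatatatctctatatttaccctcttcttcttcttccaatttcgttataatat
AT3G25240: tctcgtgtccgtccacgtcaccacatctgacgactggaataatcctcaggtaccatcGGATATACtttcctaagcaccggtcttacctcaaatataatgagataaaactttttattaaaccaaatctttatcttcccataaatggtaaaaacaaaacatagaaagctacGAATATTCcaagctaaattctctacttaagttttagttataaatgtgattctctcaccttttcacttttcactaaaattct
PS2: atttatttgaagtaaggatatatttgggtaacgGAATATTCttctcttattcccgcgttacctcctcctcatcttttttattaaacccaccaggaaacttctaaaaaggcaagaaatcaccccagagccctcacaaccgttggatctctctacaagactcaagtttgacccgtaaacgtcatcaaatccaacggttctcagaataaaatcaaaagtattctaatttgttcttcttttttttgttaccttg
AT1G23110: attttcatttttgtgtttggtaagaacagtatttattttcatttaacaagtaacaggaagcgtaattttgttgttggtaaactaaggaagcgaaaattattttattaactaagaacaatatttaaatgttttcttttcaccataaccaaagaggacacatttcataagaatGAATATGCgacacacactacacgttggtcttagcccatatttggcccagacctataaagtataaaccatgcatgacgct
AT1G08165: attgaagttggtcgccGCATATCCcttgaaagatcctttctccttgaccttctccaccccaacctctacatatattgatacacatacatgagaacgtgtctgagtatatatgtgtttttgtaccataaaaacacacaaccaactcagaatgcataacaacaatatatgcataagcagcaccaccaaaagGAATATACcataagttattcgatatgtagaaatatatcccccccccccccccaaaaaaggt

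SPX3, AT3G25240 and AT1G08165 each held 2 copies. The windows of PECP1 and IPS1, the genes with the largest rises, held none.

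The total of reads behind each root library was recovered from the steps between low RPKM values of single-exon genes. It was 38.95 M and 26.41 M for line 4 -P3 (replicates 1 and 2), 31.97 M and 19.02 M for line 4 +P0, and 19.02 to 40.71 M over the 18 root libraries. Every replicate 1 root library had more reads (29.62 to 40.71 M) than any replicate 2 root library (19.02 to 26.95 M). Line 4 +P0 replicate 2 stood apart. It had the fewest reads, its named genes summed to 595689 RPKM against 652691 to 689080 RPKM in the other 17 libraries, and AT2G01021, a short entry beside the ribosomal RNA genes of chromosome 2, stood at 26222 RPKM there against 1189 to 6249 RPKM elsewhere. Its median log2 ratio to the mean of the root libraries was -0.19, whereas the others lay between -0.06 and 0.07. The pooled replicate SD of line 4 +P0 was 0.281 on the log2 scale, against 0.173 to 0.213 in the other 8 groups. SEs and p-values use the same spread of a gene for every group, so they may understate the error of comparisons with line 4 +P0. What part this library has in each result is shown beside the counts by its removal.

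PHT5;1 (AT1G63010), the vacuolar Pi importer, had 92.3 and 66.2 RPKM in line 4 -P3 roots, against 52.1 and 57.5 RPKM in line 4 +P0 roots, where reads of the endogenous gene and of the transgene are counted together. WT had 41.1 and 41.7 RPKM in WT -P3 roots, against 29.2 and 28.2 RPKM in WT +P0 roots. Every line 4 library thus lay above its WT counterparts. Line 12 had 308 and 322 RPKM in line 12 -P3 roots, against 338 and 306 RPKM in line 12 +P0 roots, above every line 4 library. The paper calls line 12 the stronger overexpressor, so the 2 lines are not of equal level. The change in line 4 (log2 change 0.51 ± 0.15 SE, limma adjusted p = 0.02) fell short of the 1.5-fold change required of a called gene, though not without line 4 +P0 replicate 2 (0.58) or line 4 -P3 replicate 2 (0.75). It differed from that of WT by -0.01 (limma adjusted p = 0.99). Root markers were present and none of 7 root identity genes was at 0 in any root library of line 4: PYK10, a beta-glucosidase of the root endoplasmic reticulum, had 5171 and 4710 RPKM in -P3, against 4463 and 3603 RPKM in +P0. The 25 photosynthesis genes summed to 1254 and 1229 RPKM in -P3 roots and to 850 and 753 RPKM in +P0 roots, against 91339 to 116311 RPKM in the shoots of this line.

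In the 3-day response of line 4, 2114 genes (10.3% of those tested) were higher and 556 (2.71%) lower in -P3 than in +P0 roots where a called gene has a limma adjusted p below 0.05 and mean RPKM that differ 1.5-fold or more, after means below 0.25 RPKM are set to 0.25. The rises reached 8-fold in 87 genes and 4-fold in 331, and 33 genes fell at least 4-fold. By a limma adjusted p below 0.05 without the fold limit, 3664 genes were higher and 2131 lower, so the split of called genes depends on that limit. The median log2 change over all genes tested was 0.02. Without line 4 +P0 replicate 2 there were 1554 genes higher and 1107 lower, and without line 4 +P0 replicate 1 there were 2880 higher and 367 lower, while the median of all genes moved to -0.09 and 0.14. After each library had been rescaled by its median ratio, the counts were 2078 and 667. The plot of calls by library set shows how the count of lower genes depends on which +P0 library is kept.

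**Figure D1:**
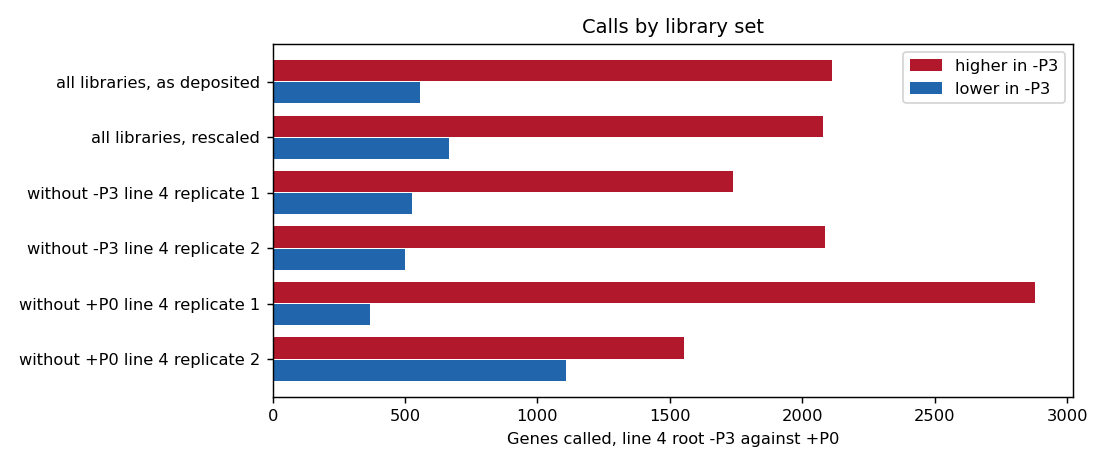
Genes called in line 4 root, -P3 against +P0 (horizontal axis: number of genes; red: higher in -P3; blue: lower in -P3), with all libraries, after rescaling, and without each library in turn. The lower genes number 1107 without line 4 +P0 replicate 2 and 367 without line 4 +P0 replicate 1, against 556 with all libraries.

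The 12 largest rises included genes of Pi uptake, Pi release, lipid exchange and the miR399 circuit, beside 4 genes of no named function. PECP1 (AT1G17710), a phosphatase that acts on phosphoethanolamine and phosphocholine, had 137 and 134 RPKM in line 4 -P3 roots, against 0.0513 and 0.0862 RPKM in line 4 +P0 roots (log2 change 8.73 ± 0.40 SE, limma adjusted p = 2e-10). IPS1 (AT3G09922), a noncoding RNA that mimics the target of miR399, had 474 and 508 RPKM in -P3, against 1.56 and 1.36 RPKM in +P0 (log2 change 8.17 ± 0.20 SE, limma adjusted p = 2.2e-13). Levels of the phosphate sensor SPX3 (AT2G45130) were 79.4 and 85.1 RPKM in -P3, against 0.307 and 0.287 RPKM in +P0 (log2 change 7.24 ± 0.30 SE, limma adjusted p = 7.2e-11). The galactolipid synthase MGD3 (AT2G11810) had 97.5 and 88.3 RPKM in -P3, against 1.68 and 1.22 RPKM in +P0, the phosphatase PS2 (AT1G73010) 214 and 201 RPKM in -P3, against 3.87 and 3.32 RPKM in +P0, and the Pi transporter PHT1;8 (AT1G20860) 11.3 and 10.05 RPKM in -P3, against 0 and 0.0983 RPKM in +P0. All log2 changes here are on the RPKM + 0.25 scale, which understates changes of genes near 0. The other 6 were PHT1;3, OCT1 (an organic cation and carnitine transporter), AT3G25240, AT5G20790, AT1G23110 and AT1G08165, and over the 12 the log2 change ran from 5.21 to 8.73. Genes were eligible only where the groups did not overlap, so the separation seen in the plot of the largest changes was set by that choice.

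**Figure D2:**
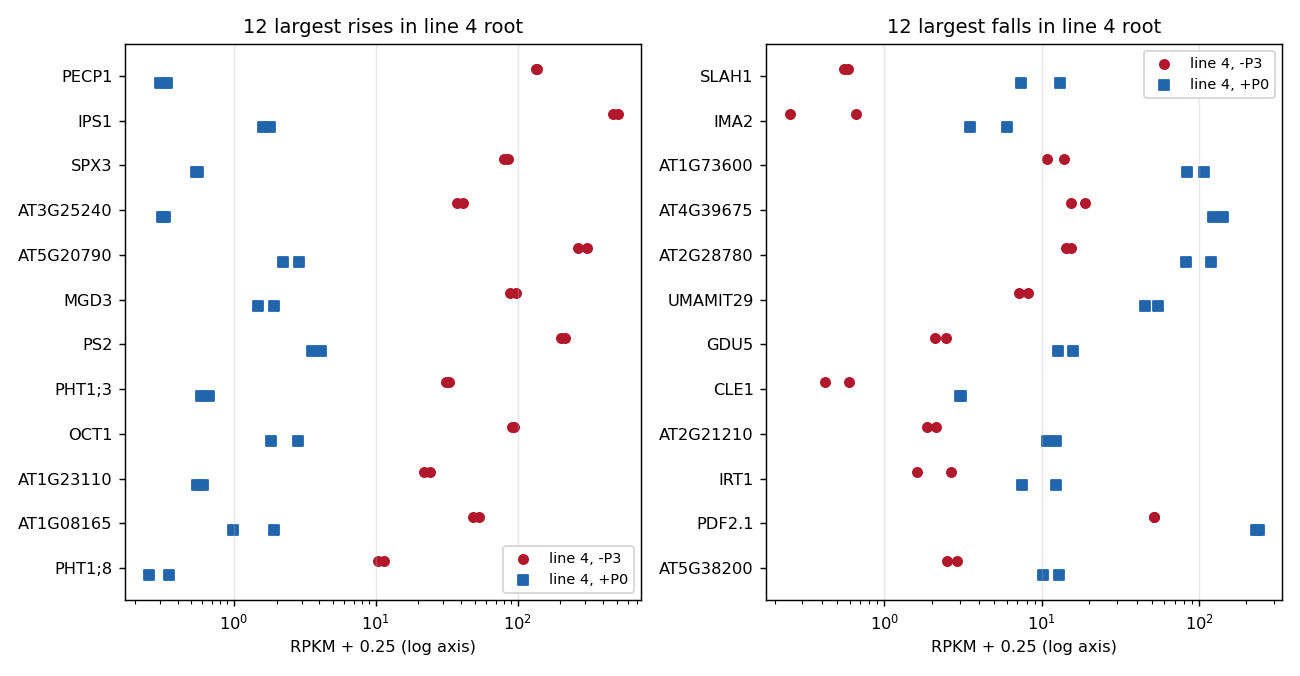
RPKM + 0.25 (log axis) of the 12 genes with the largest rises (left) and the 12 with the largest falls (right) in line 4 root; red circles are the 2 -P3 libraries and blue squares the 2 +P0 libraries. The genes were chosen among those whose groups do not overlap, and their log2 changes were 5.21 to 8.73 for the rises and -4.12 to -2.09 for the falls.

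These rises were set against those of WT and line 12. The 12 genes were chosen by the size of their rise in line 4, which favours a larger rise there than in either. The counts below are thus no independent test. Over all genes tested, 4.74% responded more positively in line 4 than in WT and 1.49% more positively than in line 12. The difference between the 3-day responses of line 4 and WT passed the test for 0 of the 12 genes, or for 1 (OCT1) after rescaling or without line 4 +P0 replicate 2. For IPS1 it was -0.09 (standard error 0.28, limma adjusted p = 0.91) and for PECP1 0.38 (standard error 0.56, limma adjusted p = 0.78). Against line 12, 11 of the 12 rose further in line 4, the exception being PHT1;8 at 1.17 (limma adjusted p = 0.26), and 9 to 11 did without any 1 library. IPS1 in line 12 had 238 and 180 RPKM in line 12 -P3 roots, against 19.9 and 20.1 RPKM in line 12 +P0 roots, so that its level was higher than in line 4 with sufficient Pi and lower after starvation. The difference for IPS1 was 4.82 (standard error 0.28, limma adjusted p = 1.9e-07). PECP1 in line 12 had 55.98 and 32.5 RPKM in line 12 -P3 roots, against 1.92 and 0.975 RPKM in line 12 +P0 roots, with the same order.

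After 1 day without Pi, 9 of the 12 were already called higher in line 4. At +P0, -P1 and -P3 the means for IPS1 were 1.46, 13.5 and 491 RPKM, those for PECP1 0.0688, 0.787 and 135 RPKM, and those for SPX1 14.2, 56.4 and 515 RPKM. Most of each rise thus came after the first day. Over all genes tested, 1144 (5.57%) were higher and 80 (0.39%) lower after 1 day. The 1-day and 3-day responses share the +P0 libraries, so their values are only set side by side. The counts after 1 day were 574 and 124 without line 4 +P0 replicate 2, 2150 and 90 without line 4 +P0 replicate 1, and 782 and 33 without line 4 -P1 replicate 2.

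**Figure D3:**
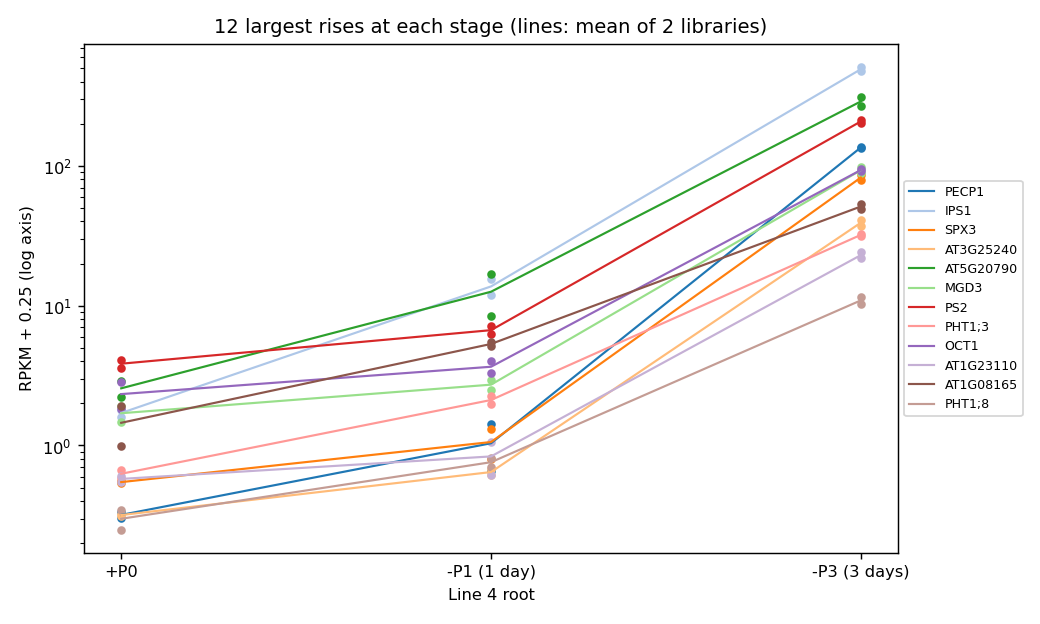
RPKM + 0.25 (log axis) of the 12 genes with the largest 3-day rises in line 4 root at +P0, after 1 day (-P1) and after 3 days (-P3) at low Pi; points are single libraries and lines join the means of 2 libraries. The means rise at each stage, for IPS1 through 1.46, 13.5 and 491 RPKM.

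Among genes of Pi uptake and export, 9 of 13 tested were called higher and 0 lower (10.3% and 2.71% of all genes tested), with a median log2 change of 1.98. PHT1 proteins carry Pi into the root across the plasma membrane. PHT1;4 (AT2G38940) had 185 and 161 RPKM in -P3, against 25.1 and 20.3 RPKM in +P0 (log2 change 2.92 ± 0.15 SE, limma adjusted p = 6.1e-10), and PHT1;9 (AT1G76430), which acts in the uptake and transport of Pi within the plant, 13.9 and 11.5 RPKM in -P3, against 0.428 and 0.166 RPKM in +P0 (log2 change 4.60 ± 0.25 SE, limma adjusted p = 1.7e-09). The near-identical copies PHT1;1, PHT1;2 and PHT1;3 also rose, but reads may be split among them and their single values are uncertain. PHF1 (AT3G52190), which lets PHT1 proteins leave the endoplasmic reticulum, had 95.9 and 82.2 RPKM in -P3, against 24.8 and 19.97 RPKM in +P0 (log2 change 1.98 ± 0.13 SE, limma adjusted p = 1e-08). PHO1 (AT3G23430), the exporter that loads Pi into the xylem, had 166 and 153 RPKM in -P3, against 168 and 152 RPKM in +P0 (log2 0.00, limma adjusted p = 0.98), and the ubiquitin-conjugating enzyme PHO2 (AT2G33770), a target of miR399, 78.7 and 68.3 RPKM in -P3, against 80.4 and 70.1 RPKM in +P0 (log2 change -0.03 ± 0.0911 SE, limma adjusted p = 0.82). The level of either gene differed between the groups by less than the spread of the libraries. NLA (AT1G02860), the ubiquitin ligase targeted by miR827, was not called (log2 change 0.38 ± 0.12 SE, limma adjusted p = 0.023), yet its response exceeded that of WT by 0.97 (limma adjusted p = 0.0018), WT having had 24.2 and 24.9 RPKM in WT -P3 roots, against 38.8 and 35.3 RPKM in WT +P0 roots. It was called higher without line 4 +P0 replicate 1, with a log2 change of 0.62.

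In the SPX and miR399 circuit 5 of 6 tested genes were higher and 0 lower, with a median of 5.12. Beside this count and that of the transcription factors below, 10.3% of all genes tested were higher and 2.71% lower. SPX1 (AT5G20150), which binds PHR1 when Pi is sufficient, had 543 and 488 RPKM in -P3, against 15.7 and 12.7 RPKM in +P0 (log2 change 5.17 ± 0.18 SE, limma adjusted p = 9.8e-12). AT4 (AT5G03545), a noncoding RNA related to IPS1, reached 2214 and 2058 RPKM in -P3, against 56.7 and 70.4 RPKM in +P0 (log2 change 5.07 ± 0.17 SE, limma adjusted p = 5.4e-12). SPX4 (AT5G15330) was the member not called, with 15.4 and 13.97 RPKM in -P3, against 16.2 and 15.9 RPKM in +P0 (log2 change -0.13 ± 0.0994 SE, limma adjusted p = 0.38). Line 4 and WT differed in this gene alone of the list (by 0.58, limma adjusted p = 0.02, and not without line 4 -P3 replicate 1, WT -P3 replicate 1 or WT +P0 replicate 2, where it was 0.51 to 0.54). PHR1 itself (AT4G28610) had 30 and 29.6 RPKM in -P3, against 33.4 and 29.5 RPKM in +P0 (log2 change -0.07 ± 0.0779 SE, limma adjusted p = 0.52), and 5 of 13 transcription factors of the Pi response were higher and 0 lower, or 8 without line 4 +P0 replicate 1. WRKY75 (AT5G13080), a factor of the starvation response and of root hair growth, had 15.7 and 15.01 RPKM in -P3, against 7.85 and 5.49 RPKM in +P0 in line 4, whereas WT had 13.6 and 11.4 RPKM in WT -P3 roots, against 14.8 and 14.7 RPKM in WT +P0 roots, and the responses differed by 1.44 (limma adjusted p = 0.0022). HHO2 (AT1G68670), a MYB-related repressor, rose in line 4 (log2 change 1.12 ± 0.10 SE, limma adjusted p = 5.6e-07).

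Most genes that free Pi from organic compounds and exchange membrane lipids rose too. Beside the list counts of this paragraph, 10.3% of all genes tested were called higher and 2.71% lower. Of 18 phosphatases and nucleases 15 were higher and 0 lower (median 2.104). PAP17 (AT3G17790), a purple acid phosphatase, had 185 and 152 RPKM in -P3, against 6.33 and 6.45 RPKM in +P0 (log2 change 4.66 ± 0.16 SE, limma adjusted p = 5.4e-12). PAP14 and PAP23, of the same family, stood at 1.76 and 1.56 RPKM and at 1.40 and 1.76 RPKM in -P3 and were listed at 0 in both +P0 libraries. The ribonuclease RNS1 rose by a log2 change of 2.57. PAP26 (AT5G34850), a vacuolar and secreted acid phosphatase, was near 0 in every root library of line 4 (0.0373 to 0.152 RPKM) and of line 12 (0.0311 to 0.387 RPKM), against 145 to 167 RPKM in WT roots. Among all named genes 2 were under 1 RPKM in every root library of both lines and at 10 RPKM or more in every WT one, the other being the beta-galactosidase BGAL9 at 0.409 to 0.877 RPKM in line 4 and 15.2 to 16.9 RPKM in WT. Both were picked after their values were seen, and their part in the differences from WT was not tested. Of 18 genes of lipid remodelling 14 were higher and 0 lower (median 1.97). SQD2 (AT5G01220), the last enzyme of sulfolipid synthesis, had 309 and 276 RPKM in -P3, against 24.3 and 20.7 RPKM in +P0 (log2 change 3.69 ± 0.12 SE, limma adjusted p = 2.6e-12). GDPD1 (AT3G02040), a glycerophosphodiester phosphodiesterase, had 229 and 217 RPKM in -P3, against 12.6 and 10.4 RPKM in +P0 (log2 change 4.25 ± 0.13 SE, limma adjusted p = 2.1e-12), and the phospholipase PLDZETA2 (AT3G05630) 19.9 and 19.7 RPKM in -P3, against 1.49 and 1.74 RPKM in +P0 (log2 change 3.43 ± 0.18 SE, limma adjusted p = 7.4e-10). GDPD2 rose in line 4 by 1.22 against a WT change of -0.11, a difference of 1.33 (limma adjusted p = 7e-05). Of 7 vacuolar Pi importers and glycerol-3-phosphate permeases 3 were higher, the permeases G3PP1, G3PP2 and G3PP3, with G3PP1 (AT3G47420) at 207 and 168 RPKM in -P3, against 15.03 and 10.9 RPKM in +P0. All 5 PEP carboxylase and PEP carboxylase kinase genes tested were higher, by log2 changes of 0.84 (PPC3) to 1.35 (PPCK2). The counts of these 4 groups were the same without either +P0 library of line 4, except that a further vacuolar gene was called without replicate 2.

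**Figure D4:**
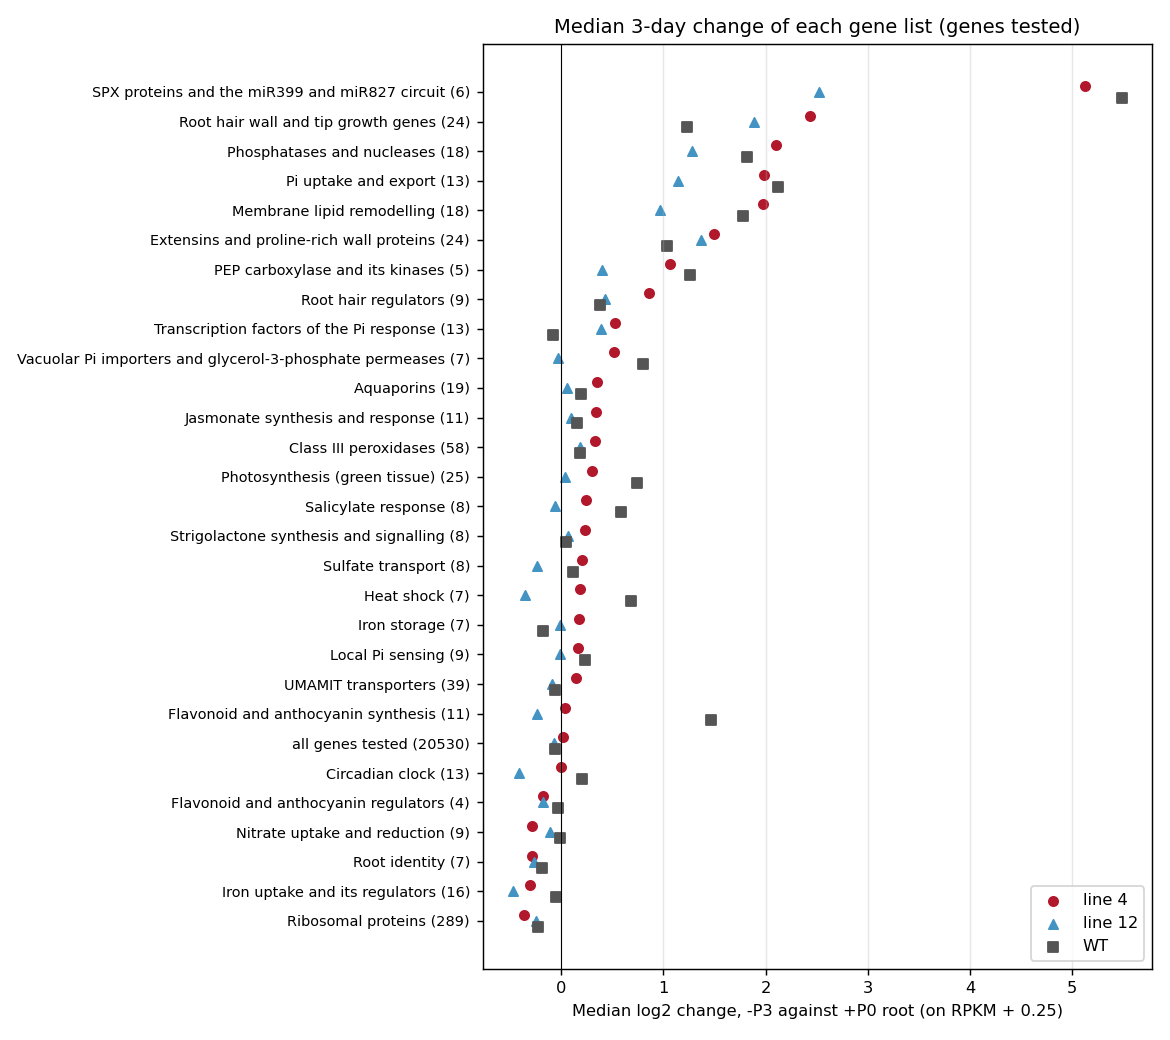
Median log2 change (-P3 against +P0 root, on RPKM + 0.25) of each gene list for line 4 (red circles), line 12 (blue triangles) and WT (grey squares), with the number of genes tested in parentheses. The root hair wall list has a median of 2.43 in line 4 and 1.23 in WT, and the flavonoid list 0.04 in line 4 and 1.47 in WT.

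The lists of Pi uptake, SPX genes, phosphatases and lipid remodelling had medians in line 4 of 1.98, 5.12, 2.104 and 1.97, and those of WT were 2.12, 5.48, 1.82 and 1.78. In line 12 they were 1.14, 2.52, 1.27 and 0.96. Line 4 had 6, 5, 6 and 10 members of these lists with a larger rise than line 12 by the test of the difference, and none with a smaller one (1.49% of all genes tested differed in the direction of a larger rise). Over the removal of each library of the 2 lines they were 2 to 8, 4 to 5, 3 to 11 and 7 to 11. For Pi uptake the count was 2 without line 12 -P3 replicate 2, and 3 without line 4 -P3 replicate 1, line 4 +P0 replicate 2 or line 12 +P0 replicate 1. For phosphatases it was 3 without line 4 -P3 replicate 1 or line 12 -P3 replicate 2, and 11 without line 4 +P0 replicate 1. After rescaling or without line 4 +P0 replicate 1, 1 phosphatase had a smaller rise. No library enters both the line 4 response and the WT or the line 12 response. Of the genes called higher in line 4, 1067 (50.5%) were also called higher in WT, which is 62.8% of the 1698 genes (8.27%) higher in WT. Of those called lower, 193 (34.7%) were also lower in WT, 22.8% of the 846 (4.12%) lower in WT. Against line 12, 1003 genes were higher in both (47.4% of line 4 and 80.8% of the 1242 of line 12, which are 6.05% of those tested), and 181 lower in both (32.6% and 34.7% of the 522, or 2.54%). Across genes the log2 changes of line 4 correlated with those of WT at r = 0.69 and with those of line 12 at r = 0.77, over 20530 genes that are not independent replicates.

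Most root hair wall genes rose in line 4, and how many of them rose further than in WT depended on single libraries. Hairs grow out of epidermal cells and lengthen at the hair tip, where expansins, extensins, xyloglucan transglucosylases and peroxidases remodel the wall. Of 24 tested genes of root hair walls and tip growth, 22 were higher and 0 lower in line 4 -P3 roots (10.3% and 2.71% of all genes tested). The median log2 change was 2.43, against 1.23 in WT and 1.89 in line 12. The response of 15 exceeded that of WT (4.74% of all genes tested did so), by 0.77 to 1.98. This count was 7 without line 4 -P3 replicate 1 or WT -P3 replicate 2 and 9 without WT +P0 replicate 1. RHS19 (AT5G67400), a root hair-specific peroxidase, had 122 and 113 RPKM in line 4 -P3 roots, against 19.8 and 8.24 RPKM in line 4 +P0 roots, and WT had 151 and 128 RPKM in WT -P3 roots, against 48 and 46.2 RPKM in WT +P0 roots (difference 1.62, limma adjusted p = 0.0065). The wall protein PRP3 (AT3G62680) had 88.6 and 94.03 RPKM in line 4 -P3 roots, against 14.96 and 9.05 RPKM in line 4 +P0 roots, and WT had 113 and 103 RPKM in WT -P3 roots, against 36.4 and 39.5 RPKM in WT +P0 roots (difference 1.44, limma adjusted p = 0.00096). In these genes line 4 and WT differed mainly in the +P0 roots, where the level was lower in line 4.

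The same order of levels held through most of the list. At +P0 both line 4 libraries lay below both WT libraries for 22 of 24 genes (32% of all genes tested), with a median log2 difference in level of -1.37. At -P3 they did so for 16 (27.4% of all genes), with a median of -0.23. At -P3 line 4 lay above WT for 2 genes (21.7% of all). Without line 4 +P0 replicate 2, the library with the lower values, 22 of 24 were still called higher, the median was 1.999 and 12 genes exceeded WT. Without line 4 +P0 replicate 1 the median was 2.94 and 18 did. In whole roots, fewer hair cells and less RNA per hair cell cannot be told apart. COBL9 (AT5G49270), which orders hair growth, rose by 1.44 and the NADPH oxidase RBOHC by 0.81, and neither passed the test against WT (limma adjusted p = 0.076 and 0.37). COBL9 did so after rescaling and without line 4 +P0 replicate 1.

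**Figure D5:**
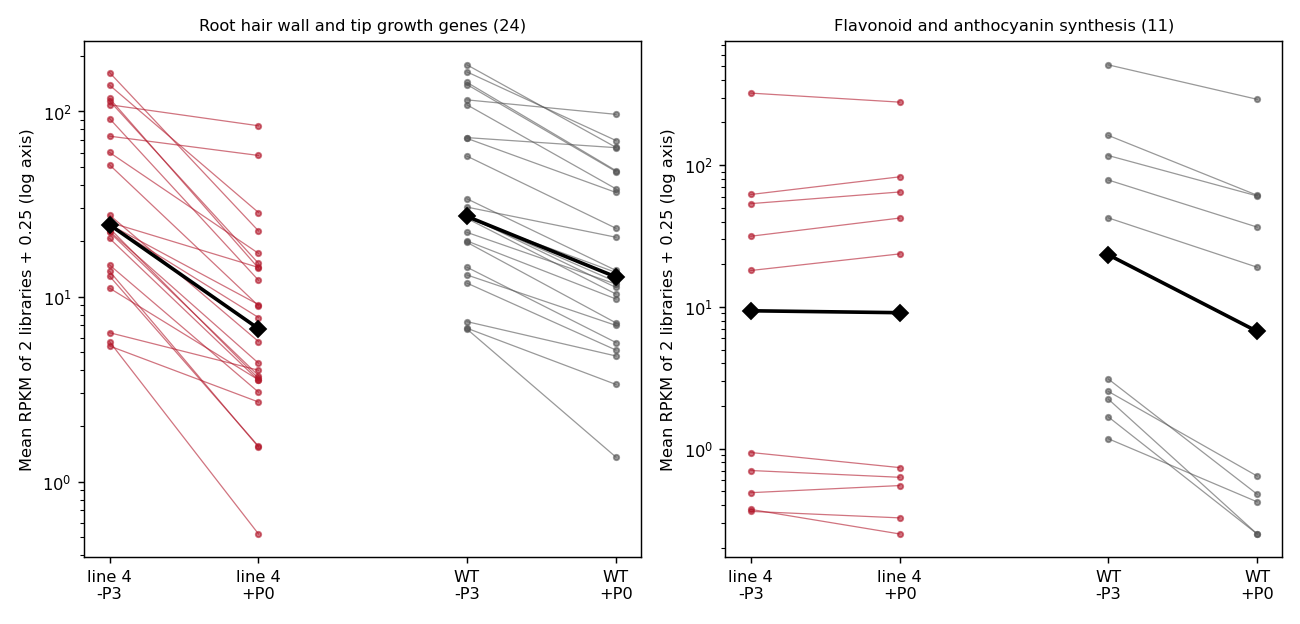
Mean RPKM + 0.25 of 2 libraries (log axis) for each of 24 root hair wall and tip growth genes (left) and 11 flavonoid and anthocyanin genes (right), in -P3 and +P0 roots of line 4 (red) and WT (grey); black diamonds are medians over genes. The hair genes stand lower in line 4 than in WT at +P0 (22 of 24, and 32% of all genes tested), and the flavonoid genes lower at -P3 (11 of 11, and 27.4% of all genes).

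Of 9 root hair regulators 5 were higher and 1 lower. Beside these and the wall gene counts below, 10.3% of all genes tested were higher and 2.71% lower. LRL3 (AT5G58010), a bHLH factor, had 26.2 and 22.5 RPKM in -P3, against 7.34 and 3.56 RPKM in +P0 (log2 change 2.19 ± 0.23 SE, limma adjusted p = 3.3e-06), and RSL2 (AT4G33880), a bHLH factor of hair elongation, 23.6 and 18.6 RPKM in -P3, against 5.64 and 4.61 RPKM in +P0 (log2 change 1.99 ± 0.14 SE, limma adjusted p = 3e-08). RHD6 (AT1G66470), which starts hair formation, had 21.03 and 21.98 RPKM in -P3, against 12.1 and 7.85 RPKM in +P0 (log2 change 1.12 ± 0.15 SE, limma adjusted p = 4.9e-05). RSL4 (AT1G27740), which sets hair length, was not called (log2 change 0.49 ± 0.15 SE, limma adjusted p = 0.019), but was without line 4 +P0 replicate 2 or line 4 -P3 replicate 2 (0.63 and 0.65). WER, a MYB factor of non-hair cells, fell by 0.64 on the log2 scale, a call lost without line 4 +P0 replicate 1 (-0.4967). Of 58 class III peroxidases 23 were higher and 3 lower (1 lower without line 4 +P0 replicate 1), and of 24 extensins and proline-rich wall proteins 18 were higher and 0 lower. EXT6 (AT2G24980) had 75.8 and 92.4 RPKM in -P3, against 10.7 and 8.01 RPKM in +P0 (log2 change 3.14 ± 0.17 SE, limma adjusted p = 1.1e-09), and AT1G34510, a peroxidase, 14.8 and 14.3 RPKM in -P3, against 1.81 and 1.87 RPKM in +P0 (log2 change 2.83 ± 0.14 SE, limma adjusted p = 6.5e-10). The responses of 15 peroxidases and 10 wall proteins exceeded those of WT (4.74% of all genes tested did so). These peroxidases numbered 25 without line 4 +P0 replicate 1, 7 without WT +P0 replicate 1, 8 without line 4 -P3 replicate 2 or WT -P3 replicate 2, and 9 without line 4 -P3 replicate 1. The wall proteins numbered 6 without line 4 -P3 replicate 2 or WT +P0 replicate 2. The responses of 2 peroxidases (1.68% of all genes) lay below those of WT, or 5 after rescaling or without line 4 +P0 replicate 2, and 1 without any other single library of these groups. The extensin genes are alike in sequence, and reads may be split among them.

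Flavonoid genes did not respond in line 4 as they did in WT. They make flavonols and anthocyanins, pigments that accumulate when Pi is short. None of 11 tested genes was called in line 4 (median 0.04), whereas 11 of 11 were called higher in WT (median 1.47, and 8.27% of all genes tested). The difference passed the test for 9, all toward line 4 being lower (-2.99 to -1.21), against 1.68% of all genes tested in that direction. FLS1 (AT5G08640), flavonol synthase, had 65.3 and 58.4 RPKM in line 4 -P3 roots, against 96.7 and 68.2 RPKM in line 4 +P0 roots, and WT had 164 and 160.2 RPKM in WT -P3 roots, against 65.7 and 56.4 RPKM in WT +P0 roots (difference -1.80, limma adjusted p = 0.00064). CHI (AT3G55120), chalcone isomerase, had 31.4 and 31.1 RPKM in -P3, against 48.3 and 35.9 RPKM in +P0 in line 4, whereas WT had 82.4 and 74.2 RPKM in WT -P3 roots, against 37.7 and 34.9 RPKM in WT +P0 roots (difference -1.51, limma adjusted p = 0.0017). LDOX (AT4G22880), an enzyme of anthocyanin synthesis, stood at 0.0408 and 0.181 RPKM in line 4 -P3 roots against 0.149 and 0 RPKM in +P0 roots, while WT had 1.73 and 2.24 RPKM in -P3 roots and was listed at 0 in both +P0 libraries. At -P3 both line 4 libraries lay below both WT libraries for all 11 genes (27.4% of all genes tested), and at +P0 for none, where they lay above WT for 3 (8.83% of all genes tested). The 2 that did not pass were CHS, chalcone synthase (difference -0.57, limma adjusted p = 0.15), and UF3GT (-1.62, limma adjusted p = 0.11). In line 12, 1 of the 11 was higher and 5 were lower (6.05% and 2.54% of all genes tested). MYB12 (AT2G47460), the MYB activator of flavonol synthesis, had 7.58 and 6.98 RPKM in -P3, against 11.4 and 8.87 RPKM in +P0 in line 4 and differed from WT by -1.32 (limma adjusted p = 0.0046). The difference from WT passed for 10 genes after rescaling and for 10 without line 4 +P0 replicate 2, where 3 were called lower within line 4. It passed for 6 without WT +P0 replicate 2 or WT -P3 replicate 2, the fewest over the removal of single libraries.

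Photosynthesis genes, which these roots expressed at far lower levels than shoots, were set beside the flavonoid genes. Of 25 tested, 7 were higher and 1 lower in line 4 (median 0.30), whereas 17 were higher in WT (median 0.74), and 6 responses were more negative than in WT (1.68% of all genes tested). The 6 became 9 after rescaling and 3 without line 4 -P3 replicate 2, WT -P3 replicate 1 or WT +P0 replicate 2. At -P3 both line 4 libraries lay below both WT libraries for 24 of the 25 genes (27.4% of all genes tested), with a median log2 difference in level of -0.51. This list thus held the same order at -P3 as the flavonoid genes. At +P0 they did so for 7 of 25, near the 32% of all genes tested, with a median of -0.10. LHCB2.1, a light-harvesting protein, had 3.29 and 2.75 RPKM in -P3, against 4.32 and 3.63 RPKM in +P0 in line 4, whereas WT had 12.99 and 10.8 RPKM in WT -P3 roots, against 3.19 and 1.91 RPKM in WT +P0 roots (difference -2.52, limma adjusted p = 2.7e-05). RBCS1A, the main small subunit of Rubisco, rose by 1.27 in line 4 and 1.18 in WT. RBCS2B, the member called lower, was at 0 in both -P3 libraries and had 0.0727 and 2.56 RPKM in +P0, so that the call rests on line 4 +P0 replicate 2 and was lost without it (log2 -0.37). Without either -P3 library the log2 change stayed at -1.93 but the adjusted p of limma was 0.12 or 0.11. The RBCS and LHCB1 genes are near-identical copies and their single values are uncertain. The part of green tissue RNA in these results was not tested.

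The 12 largest falls ran from -4.12 to -2.09. They were chosen by their fall in line 4, which favours a larger fall there than in WT. SLAH1 (AT1G62280), a subunit of anion channels that load chloride into the xylem, had 0.301 and 0.333 RPKM in line 4 -P3 roots, against 12.8 and 7.16 RPKM in line 4 +P0 roots (log2 change -4.12 ± 0.39 SE, limma adjusted p = 9.5e-07). UMAMIT29 (AT4G01430), an amino acid exporter, had 7.89 and 6.95 RPKM in -P3, against 54.2 and 44.97 RPKM in +P0 (log2 change -2.70 ± 0.17 SE, limma adjusted p = 8.8e-09), and GDU5 (AT5G24920), of the glutamine dumper family, 2.23 and 1.86 RPKM in -P3, against 15.5 and 12.5 RPKM in +P0 (log2 change -2.63 ± 0.20 SE, limma adjusted p = 8.7e-08). PDF2.1 (AT2G02120), a defensin-like peptide, had 51.6 and 51.1 RPKM in -P3, against 229.5 and 239.9 RPKM in +P0 (log2 change -2.19 ± 0.18 SE, limma adjusted p = 2.3e-07). AT1G73600, a methyltransferase of the phosphocholine pathway, had 13.6 and 10.5 RPKM in -P3, against 108 and 83.2 RPKM in +P0, and its fall differed from that of WT by -0.995 (limma adjusted p = 0.0072). AT2G28780, of unknown function, fell further than in WT too (-1.09, limma adjusted p = 0.0015). CLE1, a signalling peptide, AT2G21210, of the SAUR family, AT5G38200, a glutamine amidotransferase-like protein, and AT4G39675 completed the 12, with IMA2 and IRT1.

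The last of these belong to iron uptake. Beside the counts of the iron lists below, 10.3% of all genes tested were called higher and 2.71% lower. IRT1 (AT4G19690), the root iron transporter, had 2.39 and 1.35 RPKM in line 4 -P3 roots, against 11.97 and 7.20 RPKM in line 4 +P0 roots (log2 change -2.21 ± 0.32 SE, limma adjusted p = 8.4e-05). IMA2 (AT1G47395), a peptide that promotes iron uptake, had 0.411 and 0 RPKM in -P3, against 3.25 and 5.75 RPKM in +P0 in line 4, while WT had 2.46 and 2.77 RPKM in WT -P3 roots, against 0.810 and 1.80 RPKM in WT +P0 roots, and the difference between the responses was -4.45 (limma adjusted p = 0.00031). Of 16 iron uptake genes 5 were lower and 2 higher, and the higher ones were 1 after rescaling or without line 4 -P3 replicate 1 and 0 without line 4 +P0 replicate 2. FRO2, the ferric reductase, fell (log2 change -1.22 ± 0.26 SE, limma adjusted p = 0.0022), as did NAS4, a nicotianamine synthase (log2 change -1.15 ± 0.15 SE, limma adjusted p = 2.4e-05). FIT (AT2G28160), the bHLH factor that activates IRT1 and FRO2, had 36.7 and 31.6 RPKM in -P3, against 26.3 and 18.8 RPKM in +P0 (log2 change 0.61 ± 0.14 SE, limma adjusted p = 0.0039), but was not called after rescaling (0.58), nor without line 4 -P3 replicate 1 (0.50) or line 4 +P0 replicate 2 (0.37). Of 7 iron storage genes 1 was higher and 3 lower (1 lower without line 4 -P3 replicate 2, and 2 without line 4 +P0 replicate 1). VTL5 (AT3G25190), of the vacuolar iron transporter-like family, had 111 and 106 RPKM in -P3, against 218 and 176 RPKM in +P0 (log2 change -0.85 ± 0.15 SE, limma adjusted p = 0.00048), and the related VTL2 and VTL1 fell by 0.72 and 0.59 on the log2 scale. FER1 (AT5G01600), a ferritin that stores iron and the member called higher, had 246 and 229.7 RPKM in -P3, against 164 and 129.8 RPKM in +P0 in line 4, whereas WT had 166 and 169 RPKM in WT -P3 roots, against 163 and 174 RPKM in WT +P0 roots (difference 0.71, limma adjusted p = 0.0057). Within line 4 it fell under 1.5-fold without line 4 +P0 replicate 2 (0.54). Levels of IMA2 were low, the highest of those given being 5.75 RPKM.

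Some nitrate genes fell, and sulfate genes moved both ways. Of 9 nitrate genes 3 were lower (2.71% of all genes tested) and 0 higher, also without any 1 library of line 4: NRT1.5 (AT1G32450), which loads nitrate into the xylem, had 169 and 163 RPKM in -P3, against 496 and 357 RPKM in +P0 (log2 change -1.34 ± 0.13 SE, limma adjusted p = 7.7e-07), and the reductases NIA1 and NIR1 fell by 1.02 and 0.95 on the log2 scale. NRT2.1, the high-affinity nitrate transporter, had 488 and 404 RPKM in -P3, against 585 and 400.5 RPKM in +P0 (log2 change -0.13 ± 0.17 SE, limma adjusted p = 0.63), and its groups overlapped. Of 8 sulfate genes 3 were higher (10.3% of all genes tested) and 1 lower, or 2 higher without line 4 -P3 replicate 1. SULTR1;1, a root sulfate transporter, rose (log2 change 2.31 ± 0.22 SE, limma adjusted p = 9.3e-07) and SULTR3;5, which takes part in root-to-shoot transport, fell (log2 change -1.19 ± 0.10 SE, limma adjusted p = 3.3e-07). Of 19 aquaporins 6 were higher and 1 lower, with 10 higher without line 4 +P0 replicate 1 and 4 without line 4 +P0 replicate 2. TIP2;1, a vacuolar aquaporin, had 354 and 335 RPKM in -P3, against 149 and 114 RPKM in +P0 (log2 change 1.40 ± 0.12 SE, limma adjusted p = 1.8e-07), and PIP2;3, of the plasma membrane, 23.1 and 23.4 RPKM in -P3, against 62.4 and 50.3 RPKM in +P0 (log2 change -1.26 ± 0.12 SE, limma adjusted p = 1.3e-06).

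Of 289 ribosomal protein genes 9 were lower and 2 higher (2.71% and 10.3% of all genes tested), with a median of -0.36 against 0.02 over all genes. Without line 4 +P0 replicate 2 the median was -0.49, with 77 lower and 0 higher, and without line 4 +P0 replicate 1 it was -0.23, with 4 lower. Without line 4 -P3 replicate 1 there were 14 lower and 1 higher. RPS5A had 247 and 266 RPKM in -P3, against 427 and 375 RPKM in +P0 (log2 change -0.64 ± 0.14 SE, limma adjusted p = 0.0024), a call lost without line 4 +P0 replicate 1 (-0.55). None of 9 genes of local Pi sensing was called (2 were higher without line 4 +P0 replicate 1), the multicopper oxidase LPR1 having had 6.20 and 5.14 RPKM in -P3, against 7.83 and 6.08 RPKM in +P0 (log2 change -0.28 ± 0.16 SE, limma adjusted p = 0.2). AOC1 (AT3G25760), an allene oxide cyclase of jasmonate synthesis whose near copies may share its reads, had 4.93 and 5.12 RPKM in -P3, against 0.0626 and 0.210 RPKM in +P0 (log2 change 3.80 ± 0.34 SE, limma adjusted p = 4.2e-07), and 3 of 11 jasmonate genes were higher. Among the jasmonate genes the calls of LOX4 and JAZ10 were lost without line 4 +P0 replicate 1 (log2 0.85 and 0.86). That of LOX4 was also lost without line 4 -P3 replicate 1 (0.70) and with the 6 line 4 root libraries alone, and that of JAZ10 without line 4 -P3 replicate 2 (0.76). Of 8 salicylate genes 2 were higher, among them the isochorismate synthase ICS1 (log2 change 1.05 ± 0.15 SE, limma adjusted p = 6.2e-05). Beside the jasmonate and salicylate counts, 10.3% of all genes tested were higher. Of 8 strigolactone genes 1 was higher, MAX4 (log2 change 0.93 ± 0.18 SE, limma adjusted p = 0.0013), or 2 without line 4 +P0 replicate 1 or line 4 -P3 replicate 2. In the circadian clock 2 of 13 genes were higher and 2 lower. The higher ones were 0 without line 4 +P0 replicate 2 and 1 without either -P3 library, and the lower ones 1 without line 4 +P0 replicate 1 or line 4 -P3 replicate 2. The higher shares of the strigolactone and clock genes, 1 of 8 and 2 of 13, lie near the 10.3% of all genes called higher. GI (AT1G22770) had 21.02 and 16.3 RPKM in -P3, against 32.2 and 27.8 RPKM in +P0 in line 4 and 42.99 and 34.6 RPKM in WT -P3 roots against 12.2 and 13.9 RPKM in WT +P0 roots, a difference of -2.23 (limma adjusted p = 3.5e-05). Within line 4 its call was lost without line 4 +P0 replicate 1 (-0.58) or line 4 -P3 replicate 2 (-0.50). Heat shock genes were called for 1 higher and 1 lower of 7, against 10.3% and 2.71% of all genes tested. The higher call was lost without line 4 +P0 replicate 2 or line 4 -P3 replicate 2, and the lower one without line 4 +P0 replicate 1 or line 4 -P3 replicate 1. Of 39 UMAMIT transporters 7 were higher (10.3% of all genes tested) and 5 lower (2.71%), with 11 higher without line 4 +P0 replicate 1, UMAMIT14 having had 15.3 and 15.9 RPKM in -P3, against 3.43 and 3.74 RPKM in +P0 (log2 change 2.05 ± 0.15 SE, limma adjusted p = 4.4e-08).

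Over all genes the 3-day response of line 4 was more positive than that of WT in 973 and more negative in 344. The more positive share was 73.9% here and 55.1% after rescaling, where the counts were 1098 and 893. Without line 4 +P0 replicate 2 they were 668 and 758, and without line 4 +P0 replicate 1 they were 2860 and 328, so that the balance of directions depended on that group. Without any 1 library of line 4 -P3 or of WT there were 550 to 655 more positive and 208 to 286 more negative. Among the 973, chosen by this difference, the median log2 change was 0.50 in line 4, 0.46 in line 12 and -0.29 in WT. Of these, 34 were called higher in line 4 and lower in WT. Among the 344 it was -0.37 in line 4, -0.57 in line 12 and 0.63 in WT, with 25 called lower in line 4 and higher in WT. By these medians line 12 moved in the direction of line 4.

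Among the 6 most positive was AT3G15450, an aluminium-induced protein with YGL and LRDR motifs, with 668 and 782 RPKM in line 4 -P3 roots, against 454 and 380 RPKM in line 4 +P0 roots, while WT had 257 and 284 RPKM in WT -P3 roots, against 1208 and 1121 RPKM in WT +P0 roots (difference 2.90, limma adjusted p = 4.3e-07). It thus rose in line 4 and fell in WT, in which the +P0 level was the highest of the 4 groups. RAP2.9 (AT4G06746), an AP2-type factor, had 6.51 and 8.04 RPKM in line 4 -P3 roots, against 2.09 and 1.89 RPKM in line 4 +P0 roots, while WT had 0.861 and 0.762 RPKM in WT -P3 roots, against 1.68 and 2.70 RPKM in WT +P0 roots (difference 2.91, limma adjusted p = 4.3e-05). AT1G15125, a methyltransferase, had 15.5 and 17.2 RPKM in -P3, against 1.69 and 3.14 RPKM in +P0 in line 4 and 3.31 and 1.51 RPKM in WT -P3 against 3.20 and 3.17 RPKM in WT +P0 roots. Line 4 stood above WT after starvation in each of these genes. In line 12 the log2 changes were 1.85 for AT3G15450, 1.78 for RAP2.9 and 1.84 for AT1G15125. Among the 6 most negative were the early light-induced proteins, ELIP1 (AT3G22840) with 11.7 and 7.97 RPKM in -P3, against 20.7 and 14.2 RPKM in +P0 in line 4 and 75.2 and 56.2 RPKM in WT -P3 against 6.53 and 7.14 RPKM in WT +P0 roots, and ELIP2. ELIP1 rose in WT, and its fall within line 4 was not called without line 4 +P0 replicate 1 or line 4 -P3 replicate 2 (both -0.54). AT2G22590, a glycosyltransferase, had 1.83 and 1.5 RPKM in -P3, against 2.96 and 2.56 RPKM in +P0 in line 4 and 11.2 and 10.3 RPKM in WT -P3 against 1.27 and 0.951 RPKM in WT +P0 roots (difference -3.68, limma adjusted p = 0.00019). In line 12 the log2 changes were -2.91 for ELIP1, -3.035 for ELIP2 and -2.18 for AT2G22590.

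Against line 12 the response of line 4 was more positive in 306 genes (1.49% of those tested) and more negative in 62 (0.302%). After rescaling these were 349 and 185, a more positive share of 65.4% in place of 83.2%. The counts were 112 and 95 without line 4 +P0 replicate 2, 2342 and 106 without line 4 +P0 replicate 1, 69 and 23 without line 4 -P3 replicate 1, and 68 and 20 without line 12 -P3 replicate 2. Without each of the other 3 libraries of line 12 they were 130 to 167 and 26 to 47. Root hair wall genes differed between the lines in 1 of 24 members with all libraries and in 18 without line 4 +P0 replicate 1. Flavonoid genes differed in 0 of 11, or 3 without that library and 1 after rescaling. For Pi uptake the count was 6 of 13.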

How the data were processed

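RNA of whole roots was sequenced from paired ends. Per the methods of the study, the authors mapped trimmed reads to TAIR10 in CLC Genomics Workbench and deposited RPKM for each library, the unit of all values used here. The deposited columns of group means, fold changes and gene ontology terms were not used. The 146 entries without a gene name (at most 0.109% of a library) were left out. From these, log2(RPKM + 0.25) of the 18 root libraries went into one limma model of 9 groups with a variance trend (limma 3.58.1, R 4.3.3). Benjamini-Hochberg adjustment took in the 20530 genes whose mean reached 0.25 RPKM. Differences between responses were called by adjusted p alone. Read totals came from RPKM steps and bear on precision only. In data simulated with known changes, 90%, 90%, 98% and 100% of genes changed by a log2 of 1, 1.5, 2 and 3 were found for the 3-day response of line 4, with 8 false among 197 calls. For its difference from WT 76%, 82%, 92% and 100% were found, with 7 false among 182. The simulated noise had the same SD per gene in all groups and no shift of any library. These shares therefore do not measure errors that come from the wider spread of line 4 +P0.

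The genes named were PHT5;1, the 12 largest rises and 12 largest falls among called genes that reached a mean of 2 RPKM in the higher group and no overlap between groups, the 6 most positive and 6 most negative differences from WT, and 2 to 6 of each list, those called with the largest change first or known regulators. Members and lists were chosen with earlier results of these data known. Alternatives were other pseudocounts, filters, fold limits and scaling, the 6 line 4 root libraries alone, no variance trend, the replicate number as a block, and leaving out each library. P1BS was searched in RefSeq promoters of TAIR10.1, and 28009 of 28496 named genes matched that annotation.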

Additional observations from a re-analysis of the deposited data

Results flagged for a closer look

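The 3-day response of line 4 root differed from that of WT by a test of the difference itself in 973 genes in the more positive and 344 in the more negative direction, and from that of line 12 in 306 and 62 genes. The difference from WT, in log2, was 3.69 for AT4G35770, 3.15 for AT1G15125, 3.14 for GAT1_2.1, 2.91 for RAP2.9, 2.90 for AT3G15450 and 2.90 for MIOX4, the 6 most positive. It was -4.45 for IMA2, -4.01 for ELIP1, -3.94 for IMA1, -3.68 for AT2G22590, -3.17 for ELIP2 and -3.10 for RBCS1B, the 6 most negative. AT4G35770 did not pass without line 4 -P3 replicate 2 (3.14, limma adjusted p = 0.051). RBCS1B had 1.14 and 1.12 RPKM in line 4 -P3 and 0.619 and 2.54 RPKM in line 4 +P0 roots, and its reads may be split with near-identical copies.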

How the results depend on the processing

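Rescaling each library by its median ratio gave 2078 genes higher and 667 lower in the 3-day response of line 4, 884 and 155 in the 1-day response, 1098 more positive and 893 more negative than WT, and 349 and 185 against line 12. A fold limit of 2 left 1095 and 175 genes at 3 days and 455 and 27 at 1 day. Against line 12 there were 151 and 33 without a filter on low values, and 142 and 36 without a variance trend. Leaving out each library in turn gave 1554 to 2880 genes higher and 367 to 1107 lower at 3 days, 574 to 2150 and 33 to 124 at 1 day, 550 to 2860 more positive and 208 to 758 more negative than WT, and 68 to 2342 and 20 to 106 against line 12. At 3 days the most higher genes came without line 4 +P0 replicate 1 and the most lower genes without line 4 +P0 replicate 2. Chosen after seeing the data, rescaling was combined with leaving out a +P0 library of line 4. Without replicate 2 it gave 629 genes higher at 1 day, 669 more negative than WT and 173 more positive than line 12, and without replicate 1 it gave 176 lower at 1 day, 633 more negative than WT and 153 more negative than line 12. The cause of these shifts was not tested. Among named genes called with all libraries or under an alternative, no value changed direction between them. Changes of sign in genes called in neither were not counted.

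The replicate number as a block (replicate block) gave 2143 and 567 genes at 3 days, 1194 and 480 against WT, and 555 and 99 against line 12. The differences between replicates 1 and 2 of a group, taken per gene, were correlated between root groups. Over 36 pairs of groups the median r was 0.07 (-0.07 to 0.24). It exceeded 0.1 in 10 pairs and was 0.14 for line 4 -P3 and +P0. The numbers were not taken to pair the libraries. With 2 libraries a group, small changes and genes near 0 RPKM were hard to resolve, the more so against line 4 +P0 replicate 2 with its 19.02 M reads. Changes under 1.5-fold were left out of the calls by the fold limit even where they passed the adjusted p. Of 169 named genes, 41 changed call in the 3-day response of line 4 without at least 1 library.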
